A study of Homo sapiens with 3 samples.

Results

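The 8 genes described here, BAX, PMAIP1, BBC3, FAS, TNFRSF10B, AEN, TP53I3 and TRIAP1, are targets of the transcription factor p53 with known roles in apoptosis. They were picked by gene name, from general knowledge and with earlier results of these data known, and cover 41 of the 31565 polyadenylation sites (pAs) and 8 of the 9431 genes of the table. RKO is an established, poorly differentiated human colon carcinoma cell line. Nuclear RNA was taken from cells at baseline (0 h) and from cells left to recover for 0.5 h or 2 h after UV irradiation, with 1 library per time point and no other agent named. In 3ʹREADS the RNA fragment next to the poly(A) tail is sequenced, so that a read marks the 3ʹ end of 1 transcript and its pA. Since a transcript gives 1 such end whatever its length, levels were compared between genes without division by length.

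When DNA is damaged, p53 is stabilised and activates genes that stop the cell cycle, repair DNA or kill the cell. Death by the mitochondrial route depends on BAX, which forms pores in the outer mitochondrial membrane, and on the BH3-only proteins PMAIP1 (NOXA) and BBC3 (PUMA), which counter the protective members of the BCL2 family. Death by the extrinsic route starts at receptors of the cell surface, among them FAS and TNFRSF10B (DR5, a receptor of TRAIL). AEN is an exonuclease of the nucleus that takes part in DNA fragmentation, and TP53I3 (PIG3) is an oxidoreductase linked to reactive oxygen species. TRIAP1 goes against the name of the group, since it is known as a p53 target that inhibits apoptosis. A pA in an intron ends the transcript before its last exon, and alternative polyadenylation (APA) between an intronic pA and the 3ʹ-most exon is called intron-APA.

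Each RPM value of the table (reads scaled to the size of the library) was a whole multiple of 1 read, and the reads were therefore recovered. The libraries held 433261 to 501838 reads, and 1 read was worth 1.99 to 2.31 RPM. Intronic pAs took 6.86% of the reads of the table before UV, 6.0% after 0.5 h and 8.46% after 2 h. The table listed 3 of 11 markers of colon epithelium, with 0 to 26 reads each, of which KRT8 and KRT18 had reads in every library and EPCAM was at 0 at 2 h. KRT8 was called higher at 2 h than at 0 h and EPCAM lower by the test of expression given below. All 30 reads of the epithelial markers at 2 h, those of KRT8 among them, were at intronic pAs, against 4 of 13 at 0 h. None lay in the 3ʹ-most exon at 2 h. Of 10 fibroblast markers the table listed ACTA2 alone, with 0, 0 and 4 reads, and of 9 leukocyte markers CD68 alone, with 1965 to 2589 reads. The part of these markers in the results was not tested. Each test sets the reads of 2 libraries against each other, so it compares those libraries and not the conditions, and the spread between cultures is unknown. In bulk RNA, fewer cells with a transcript and fewer transcripts per cell cannot be told apart.

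The promoters of the 8 genes were read for the half-site of the p53 response element, a decamer that is its own reverse complement and is given here by its name alone. RefSeq (GRCh38.p14) gave a window of 250 bases before to 50 after the start for 7 of the genes, 9 windows in all. The half-site was found in 2 of the 9, 1 of FAS and 1 of AEN, and in 6.63% of 35116 windows of all genes. Both stretches are shown because they are the matches among the members, with the half-site in capitals:
FAS, chr10:88991304-88991333, plus strand: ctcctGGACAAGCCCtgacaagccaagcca
AEN, chr15:88621301-88621330, plus strand: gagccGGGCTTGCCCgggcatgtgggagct
The half-site of FAS lies at bases -122 to -113 from the start and that of AEN at -34 to -25, and in each the next decamer departs from the half-site at 2 positions. A match is a description of these letters, and the windows of BAX, PMAIP1, BBC3, TP53I3 and TRIAP1 without one say nothing of p53 binding.

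The 8 genes did not change at 1 time or in 1 direction. In the library at 2 h, BAX, PMAIP1, TP53I3 and TRIAP1 were called higher than at 0 h, by 2.25-fold to 18.8-fold. BBC3, FAS, TNFRSF10B and AEN did not pass the test. BAX and TRIAP1 were already higher at 0.5 h, FAS was lower at 0.5 h, and PMAIP1 and TNFRSF10B were higher at 2 h than at 0.5 h. Some of these calls were lost when 3ʹ-most-exon pAs were counted alone. They were TP53I3 from 0 to 2 h (10 and 10 reads) and TNFRSF10B from 0.5 to 2 h (14 and 9 reads). TRIAP1 from 0 to 0.5 h (2 and 15 reads) was lost as well. Expression, that is the reads of all pAs of a gene together, was tested by a two-sided Fisher's exact test against the other reads of the library. Calls needed a p below 0.05 after Benjamini-Hochberg adjustment over all genes with a read in either library and a log2 ratio of RPM (0.1 RPM added) beyond 1 or -1.

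From 0 to 0.5 h, 2 of the 8 genes were called higher, beside 2.15% of 8804 genes tested, and 1 lower, beside 4.36%. From 0.5 to 2 h, 2 were called higher, beside 5.37% of 8905 genes, and none lower, beside 4.83%. From 0 to 2 h, 4 were called higher, beside 4.84% of 9044 genes, and none lower, beside 7.55%. Their median log2 ratio was 0.23 from 0 to 0.5 h, 0.82 from 0.5 to 2 h and 1.05 from 0 to 2 h, and that of all genes tested was -0.20, 0.11 and -0.02, respectively. The 3 windows share libraries and are not independent of each other. The split of calls over all genes depended on the scaling: from 0 to 0.5 h 189 genes were higher and 384 lower, and with upper-quartile scaling 291 and 203. From 0 to 2 h, the split was 438 and 683 with the library totals, 534 and 551 with median-of-ratios scaling and 575 and 468 with upper-quartile scaling. Every call on the 8 genes kept its direction and its side of the threshold under these scalings, and TP53I3 was called higher from 0 to 0.5 h as well with the upper quartile (log2 ratio 1.07).

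**Figure D1:**
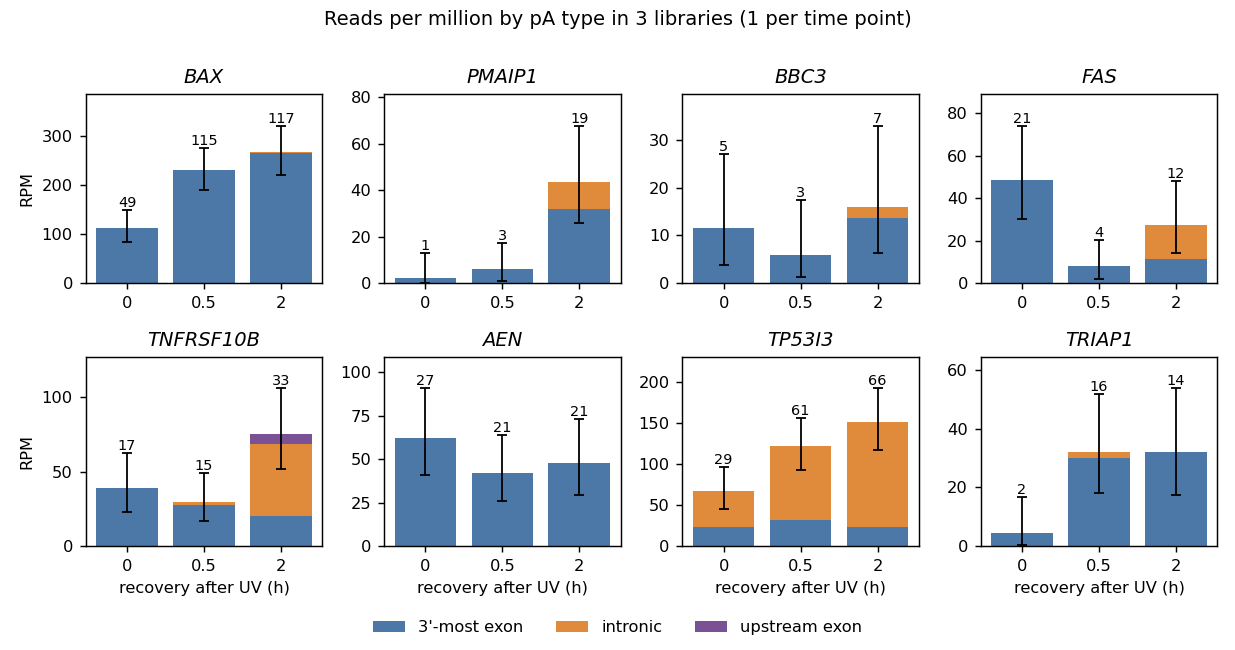
RPM of each gene (y axis, from 0, with its own scale in each panel) in the 3 libraries by recovery after UV (x axis, h). Bars are stacked by pA type, error bars are the 95% Poisson interval of the total, and the number above each bar is its reads: BAX with 49, 115 and 117 reads is almost all 3ʹ-most exon, while most of TP53I3 in every library and of TNFRSF10B and FAS at 2 h is intronic.

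Among the genes of the mitochondrial route, BAX was the most abundant of the 8 in every library. It had 49 reads at 0 h, 115 at 0.5 h and 117 at 2 h, or 113, 229 and 267 RPM. The library at 0 h was low and both later libraries were high and close to each other. The level at 0.5 h was 2.03-fold that at 0 h (95% interval of the ratio 1.44–2.89, adjusted p = 0.000520 by Fisher's exact test). The level at 2 h was 2.36-fold that at 0 h (1.68–3.37, adjusted p = 3.69e-06 by Fisher's exact test), whereas the ratio of 2 h to 0.5 h was 1.17 (0.89–1.52) and did not pass the test. With 3 RPM added instead of 0.1 RPM, the log2 ratio of BAX from 0 to 0.5 h was 0.9998, just short of the threshold. These intervals, like all intervals here, cover the error of counting alone and not the spread between cultures. They treat reads as independent. PCR copies of 1 molecule could not be recognised without molecular identifiers, so the error of counting may be larger than shown.

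Nearly all reads of BAX came from 1 pA at position 49465055 of chromosome 19 (hg19, plus strand), in the 3ʹ-most exon, with 49, 115 and 113 reads. A second pA 149 bp upstream of it, also in the 3ʹ-most exon, had 3 reads at 2 h and none before. The intronic pA of BAX, 562 bp upstream of the main pA, had 1 read at 2 h. The 0 intronic reads at 0.5 h allow a share of up to 3.16% (upper end of the 95% Clopper-Pearson interval), and the share at 2 h was 0.85% (0.02–4.67%).

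PMAIP1 had few reads in the first libraries, 1 at 0 h and 3 at 0.5 h, and had 19 reads at 2 h. In RPM the values were 2.31, 5.98 and 43.4, so that only the library at 2 h stood apart. The counts at 0 h and 0.5 h allow up to 12.9 and 17.5 RPM (upper ends of the 95% Poisson intervals). The level at 2 h was 7.26-fold that at 0.5 h (95% interval 2.14–38.3, adjusted p = 0.00227 by Fisher's exact test) and 18.8-fold that at 0 h (2.99–781, adjusted p = 0.000613 by Fisher's exact test). The width of these intervals comes from the 1 and 3 reads of the earlier libraries. At 2 h, 14 of the 19 reads lay in the 3ʹ-most exon, 11 of them at the pA at position 57570564 of chromosome 18 (hg19, plus strand). The other 5 reads lay at intronic pAs 999 and 1799 bp upstream, with 2 and 3 reads, and neither pA had a read at 0 or 0.5 h. The intronic share at 2 h was 26.3% (9.15–51.2%), but the 1 and 3 reads before it leave room for any share up to 97.5% and 70.8%, and the change in share was not called.

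BBC3 had 5, 3 and 7 reads, or 11.5, 5.98 and 16.0 RPM, and its Poisson intervals overlapped in all 3 libraries. The ratio of 2 h to 0 h was 1.38 (95% interval 0.38–5.53), an interval that holds the 2.36-fold rise of BAX as well as no change, so that a difference was not detectable at this depth. Of its reads, 14 lay at the only 3ʹ-most-exon pA and 1, at 2 h, at an intronic pA 9812 bp upstream.

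Of the genes with effector roles further along, AEN had 27, 21 and 21 reads, or 62.3, 41.8 and 47.9 RPM. The ratio of 2 h to 0 h was 0.77 (95% interval 0.41–1.41), and no window was called. The interval holds no change as well as a fall to 0.41 of the level at 0 h. The use of the pAs of AEN is given below.

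TRIAP1 had 2 reads at 0 h, 16 at 0.5 h and 14 at 2 h, or 4.62, 31.9 and 32.0 RPM. As for BAX, the library at 0 h was low and the later libraries were level. The level at 0.5 h was 6.91-fold that at 0 h (95% interval 1.62–61.9, adjusted p = 0.0353 by Fisher's exact test) and that at 2 h 6.92-fold (1.59–62.8, adjusted p = 0.0294 by Fisher's exact test). The ratio of 2 h to 0.5 h was 1.00 (0.45–2.19). Nearly all of these reads, 2, 13 and 14, came from the pA at position 120881767 of chromosome 12 (hg19, minus strand) in the 3ʹ-most exon, and 1 read at 0.5 h was intronic. Counting 3ʹ-most-exon pAs alone, the adjusted p from 0 to 0.5 h was 0.0505 (Fisher's exact test) and TRIAP1 was not called.

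TP53I3 had 29 reads at 0 h, 61 at 0.5 h and 66 at 2 h, or 66.9, 122 and 151 RPM. The level at 2 h was 2.25-fold that at 0 h (95% interval 1.43–3.61, adjusted p = 0.00236 by Fisher's exact test). The ratio of 0.5 h to 0 h was 1.82 (1.15–2.93), short of the threshold at an adjusted p = 0.0692 by Fisher's exact test. Unlike BAX and TRIAP1, TP53I3 ended mostly in an intron. A single intronic pA at position 24303619 of chromosome 2 (hg19, minus strand), 3316 bp upstream of the main 3ʹ-most-exon pA, had 19, 45 and 56 reads, while all 3ʹ-most-exon pAs together had 10, 16 and 10. The intronic share was 65.5% (45.7–82.1%), 73.8% (60.9–84.2%) and 84.8% (73.9–92.5%) in the order of time. The change of 19.3 points from 0 to 2 h did not pass the test (p = 0.0537 by Fisher's exact test), and the intervals overlap. Reads at the intronic pA were 2.92-fold higher at 2 h than at 0 h (95% interval 1.71–5.20), and for the 3ʹ-most exon the same ratio was 0.99 (0.37–2.65). The table also lists 1 read of FAM228B, on the opposite strand, within the span of the TP53I3 pAs.

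Neither of the death receptors was called higher at 0.5 h. FAS, whose promoter half-site is printed above, had 21 reads at 0 h, 4 at 0.5 h and 12 at 2 h, or 48.5, 7.97 and 27.4 RPM. The library at 0.5 h was low, and its Poisson interval, 2.17–20.4 RPM, lay below that of the library at 0 h, 30–74.1 RPM. FAS was 6.08-fold lower at 0.5 h than at 0 h (95% interval 2.05–24.4, adjusted p = 0.00324 by Fisher's exact test). The ratio of 2 h to 0.5 h was 3.44 (1.04–14.6) and was not called at an adjusted p = 0.119 (Fisher's exact test).

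The reads of FAS at 2 h were of another kind than those before. At 0 h and 0.5 h all 21 and 4 reads lay in the 3ʹ-most exon, whereas at 2 h 5 reads lay there and 7 in introns. The 7 reads came from 3 intronic pAs 22159 to 24143 bp upstream of the main 3ʹ-most-exon pA at position 90775542 of chromosome 10 (hg19, plus strand), with 3, 2 and 2 reads. None of them had a read in the earlier libraries. The intronic share was 0% at 0 h (upper limit 16.1%) and 58.3% at 2 h (27.7–84.8%), a change that was called (p = 0.000185, adjusted p = 0.00658 by Fisher's exact test). Against the 4 reads at 0.5 h, which allow a share of up to 60.2%, the change was not called (p = 0.0885 by Fisher's exact test).

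TNFRSF10B had 17 reads at 0 h, 15 at 0.5 h and 33 at 2 h, or 39.2, 29.9 and 75.3 RPM. The level at 2 h was 2.52-fold that at 0.5 h (95% interval 1.33–4.99, adjusted p = 0.0196 by Fisher's exact test) and 1.92-fold that at 0 h (1.04–3.68, adjusted p = 0.141 by Fisher's exact test, not called). With all libraries thinned to the size of the smallest, the log2 ratio from 0.5 to 2 h was 1.19 in place of 1.33, had an adjusted p of 0.0792 by Fisher's exact test and was no longer called. The additional reads did not lie in the 3ʹ-most exon, which had 17, 14 and 9 reads. Introns had 0, 1 and 21 reads, and a pA in an upstream coding exon had 3 reads at 2 h alone. The intronic share was therefore 0% at 0 h (upper limit 19.5%), 6.67% after 0.5 h (0.17–31.9%) and 70.0% after 2 h (50.6–85.3%). The change was called from 0.5 to 2 h (p = 7.54e-05, adjusted p = 0.00353 by Fisher's exact test) and from 0 to 2 h (p = 1.34e-06, adjusted p = 0.000135 by Fisher's exact test). Against an assumed floor of 3 reads in the library at 0 h, the ratio of intronic reads at 2 h was 6.92, which leaves out counting error. The lower end of the exact 95% interval of the ratio to 0 reads was 5.15. Against the single read at 0.5 h the ratio was 24.1 (95% interval 3.87–995).

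The 21 intronic reads of TNFRSF10B at 2 h were spread over 9 pAs between 11.6 and 47.1 kb upstream of the main 3ʹ-most-exon pA at position 22877646 of chromosome 8 (hg19, minus strand). The most used of them, at 43.6 kb, had 8 reads, and 6 of the 9 lay more than 43 kb upstream. Tested alone against the 3ʹ-most exon, the pA with 8 reads was called from 0.5 to 2 h (p = 0.00346 by Fisher's exact test), but not after adjustment over all intronic pAs (adjusted p = 0.132). Within the span of these pAs the table lists 4 reads of RHOBTB2 on the opposite strand, and none of the pAs is listed under a second gene.

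**Figure D2:**
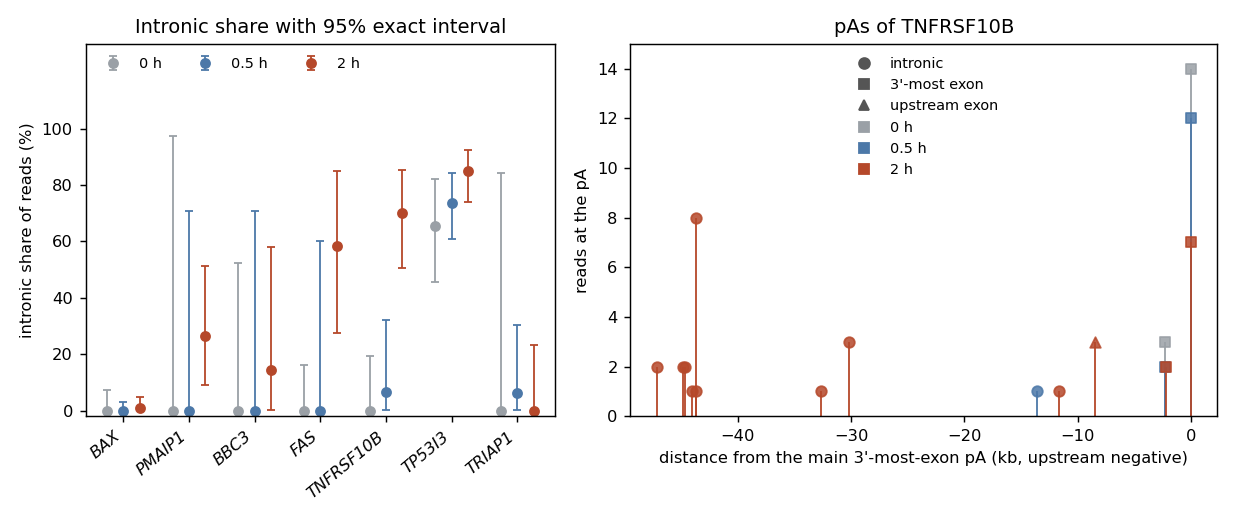
Left, share of intronic reads among intronic and 3ʹ-most-exon reads (y axis, %) of the 7 genes with a listed intronic pA in the 3 libraries, with 95% Clopper-Pearson intervals. Right, reads at each pA of TNFRSF10B (y axis) against its distance from the main 3ʹ-most-exon pA (x axis, kb): at 2 h the highest intronic pA had 8 reads and the main pA 7, against 14 at 0 h.

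Over the group, 1 of 7 genes tested was called for a higher intronic share from 0.5 to 2 h, TNFRSF10B, beside 15.7% of 3415 genes tested. From 0 to 2 h, 2 of 6 were called, FAS and TNFRSF10B, beside 15.7% of 3548 genes. With adjusted p-values the same calls stood beside 5.68% and 5.64%. From 0 to 0.5 h, none of 3 was called higher, beside 6.2% of 2612 genes. No gene of the 8 was called for a lower intronic share, beside 3.14%, 2.02% and 1.3% of all genes in the 3 windows. A change in share was called at p under 0.05 and above 5 percentage points, and a gene was tested when the reads of both kinds and both libraries were not all on 1 side. The share of genes called lies near the background from 0.5 to 2 h, and from 0 to 2 h it rests on 2 genes. With each pA counted once whatever its reads, an alternative chosen after seeing the data, the shares from 0 to 2 h changed by 60 points for FAS and 81.8 points for TNFRSF10B. Neither was called, but with 2 to 11 pAs per gene and library this test could not reach the threshold for them, and it called 6 of 3548 genes (0.17%), so it says nothing of stability. From 0.5 to 2 h the share of TNFRSF10B changed by 48.5 points and was not called (p = 0.176 by Fisher's exact test).

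Intronic pAs of the 8 genes were mostly seen at 2 h. The table lists 19 intronic pAs for 7 of the genes and none for AEN. Of these, 16 had reads at 2 h alone (84.2%), beside 5577 of 11989 intronic pAs of all genes (46.5%). They belong to 5 genes, BAX, PMAIP1, BBC3, FAS and TNFRSF10B, and 6 of them rest on 1 read. TNFRSF10B alone has 9 of the 16 and FAS 3, so the share mostly describes these genes and not the group. The summed intronic reads of the 8 genes were 19, 47 and 91, and without TP53I3 they were 0, 2 and 35. The summed 3ʹ-most-exon reads were 132, 191 and 195 in libraries of 433261, 501838 and 438040 reads.

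Counting 3ʹ-most-exon pAs alone, which end transcripts in their last exon, gave the genes separate results. BAX, PMAIP1 and TRIAP1 remained higher at 2 h than at 0 h, with log2 ratios of 1.23, 3.73 and 2.77 and adjusted p-values of 4.58e-06, 0.00878 and 0.0277 by Fisher's exact test. FAS was lower at 2 h than at 0 h, by 4.25-fold (95% interval 1.56–14.4, adjusted p = 0.0119 by Fisher's exact test). TP53I3 and TNFRSF10B were not called, and the log2 ratio of TP53I3 was -0.02 and that of TNFRSF10B -0.93. The median log2 ratio of all genes counted this way was -0.43 in that window. The numbers called among the 8 genes were 3 higher, beside 3.42% of 7862 genes, and 1 lower, beside 9.69%. From 0 to 0.5 h, 1 gene was called higher, BAX, beside 2.13% of 7872 genes, and 1 lower, FAS, beside 4.71%. From 0.5 to 2 h, 1 was called higher, PMAIP1, beside 3.68% of 7590 genes, and none lower, beside 6.32%.

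**Figure D3:**
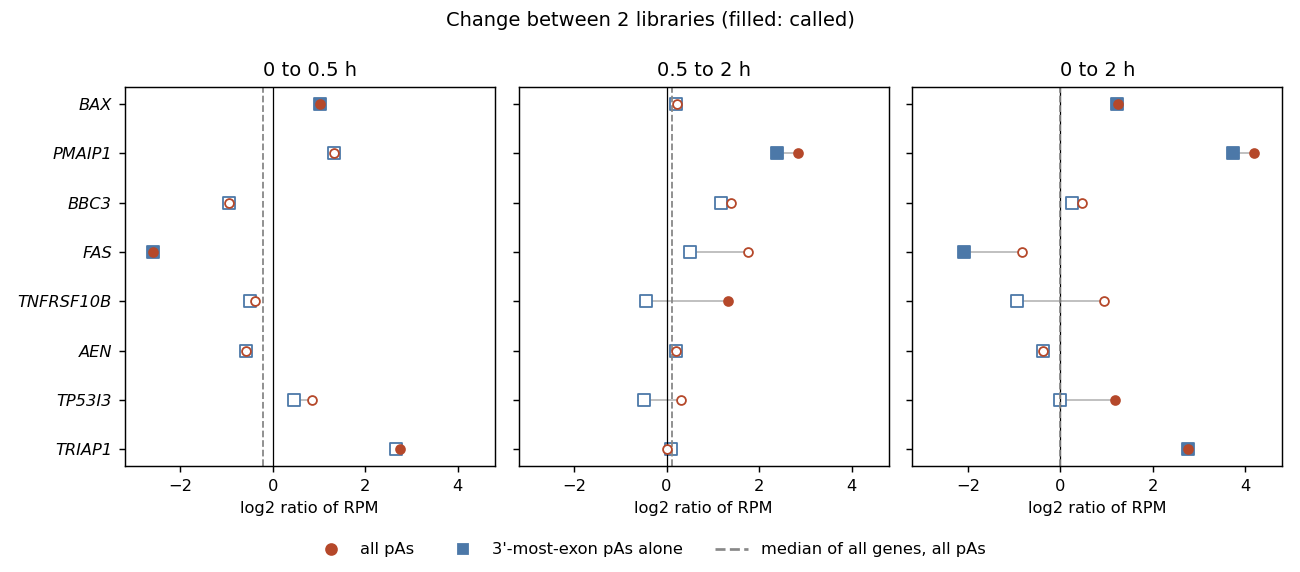
Log2 ratio of RPM between 2 libraries (x axis, 0.1 RPM added) for each gene (rows) in the 3 windows, from all pAs (circles) and from 3ʹ-most-exon pAs alone (squares), filled where called. The dashed line is the median of all genes over all pAs: in the 0 to 2 h panel circle and square coincide for BAX and TRIAP1 and lie apart for TNFRSF10B (0.94 and -0.93), TP53I3 (1.17 and -0.02) and FAS (-0.82 and -2.08).

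Within the 3ʹ-most exon, AEN was the gene whose pA use was called (3ʹUTR-APA, the 2 most abundant pAs of the exon, with p below 0.05 and a shift of over 5 percentage points). Its distal pA at position 89175512 of chromosome 15 (hg19, plus strand) had 22, 20 and 8 reads. Its proximal pA, 1447 bp upstream, had 5, 1 and 12 reads. The distal pA led in the first libraries and the proximal pA at 2 h, and the proximal share was 18.5% (6.30–38.1%), 4.76% (0.12–23.8%) and 60% (36.1–80.9%). The change of 55.2 points from 0.5 to 2 h held after adjustment over all genes (adjusted p = 0.0108 by Fisher's exact test). That of 41.5 points from 0 to 2 h had p = 0.00555 and did not hold (adjusted p = 0.103 by Fisher's exact test).

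From 0 to 0.5 h, none of 6 genes tested for 3ʹUTR-APA was called, beside 12.2% of 3382 genes. From 0.5 to 2 h, 1 of 6 was called, beside 15.5% of 3084 genes and 2.69% with adjusted p-values, and from 0 to 2 h 1 of 6, beside 12.6% of 3246 genes. BBC3 has a single 3ʹ-most-exon pA in the table and was not testable. The 6 genes tested were not the same in each window. BAX was not testable from 0 to 0.5 h, TNFRSF10B from 0.5 to 2 h and TRIAP1 from 0 to 2 h. In those windows the proximal pA had 0 reads in both libraries. For FAS the proximal pA had 5, 3 and 2 reads and the distal pA, 682 bp downstream, 16, 1 and 3 reads. The proximal share of FAS was 23.8% at 0 h (8.22–47.2%) and 75.0% at 0.5 h (19.4–99.4%), which was not called (p = 0.0808 by Fisher's exact test). The 2 pAs of BAX lie 149 bp apart and the distal pA took 113 of 116 reads or more in every library. Those of TP53I3 lie 57 bp apart, with 1, 1 and 0 reads at the proximal pA.

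**Figure D4:**
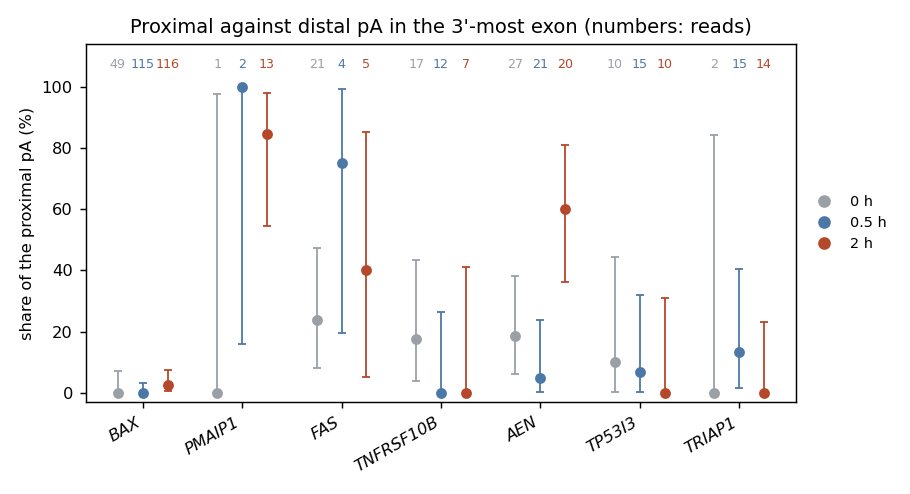
Share of the proximal pA (y axis, %) in the summed reads of the 2 pAs compared in the 3ʹ-most exon for the 7 genes with 2 such pAs in the 3 libraries, with 95% Clopper-Pearson intervals and the number of reads above. AEN was at 18.5%, 4.76% and 60%, and its intervals at 0.5 h and 2 h are the only pair of a gene that do not overlap.

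By level, BAX ranked first and TP53I3 second in every library. At 0.5 h and 2 h their difference passed the test (115 against 61 reads, adjusted p = 0.000600, and 117 against 66 reads, adjusted p = 0.00141, exact binomial test over 21 neighbouring pairs). At 0 h, with 49 and 29 reads, it did not (adjusted p = 0.0924, exact binomial test). TP53I3 was in turn above the gene ranked below it at 0.5 h, AEN with 21 reads, and at 2 h, TNFRSF10B with 33 reads (adjusted p = 0.000237 and 0.00622, exact binomial test). No other neighbours in the order passed the test. The pairs and their direction were taken from the same reads that were tested. These p-values are therefore descriptive and not those of pairs set beforehand. PMAIP1 was last at 0 h and above TRIAP1, FAS and BBC3 at 2 h.

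The genes whose profile lay nearest to those of BAX, AEN and TP53I3, the members with at least 20 reads in every library, were found by the distance of log2 RPM centred over the 3 libraries, among 1747 genes. For BAX they were GDF15 (77, 187 and 180 reads, distance 0.06) and SHISA5 (4480, 10739 and 11348 reads, distance 0.06). For TP53I3 they were ATP6V1E1 (77, 157 and 171 reads) and CCDC124 (23, 47 and 49 reads). For AEN they were CNOT3 (32, 25 and 25 reads) and KRI1 (556, 434 and 431 reads). With 3 libraries such closeness is a description of these libraries.

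Other targets of p53 were called in either direction. Of 36 such genes outside the group, 26 are in the table, and from 0 to 2 h 4 were called higher and 3 lower, beside 4.84% and 7.55% of all genes, with a median log2 ratio of 0.42 beside -0.02. A higher intronic share was called in 4 of 11 tested, beside 15.7% of all genes. Of these 4, CDKN1A alone held after adjustment, beside 5.64% of all genes with adjusted p-values. CDKN1A, which encodes the cell cycle inhibitor p21, had 53, 66 and 227 reads (adjusted p = 1.74e-24 for 2 h against 0 h by Fisher's exact test). Of those, 6, 5 and 149 were intronic, so that its intronic share rose from 7.58% to 65.6% from 0.5 to 2 h (adjusted p = 5.36e-15 by Fisher's exact test), as did that of TNFRSF10B. GDF15, a secreted stress factor of the TGF-beta family, was higher at 2 h than at 0 h (177.7 and 411 RPM, adjusted p = 6.44e-09 by Fisher's exact test). PERP, a membrane protein of cell junctions that takes part in p53-dependent death, was lower (360.1 and 144 RPM, adjusted p = 4.47e-09 by Fisher's exact test).

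Of 15 regulators of p53, 14 are in the table, and from 0 to 2 h none was called higher and 2 lower, beside 4.84% and 7.55% of all genes. Their median log2 ratio was -0.32, beside -0.02, and a higher intronic share was called in 3 of 7 tested, beside 15.7%. None of these 3 held after adjustment, beside 5.64% of all genes with adjusted p-values. MDM2, 1 of the 3, is counted among the other targets of p53 as well. MDM2, the ubiquitin ligase that degrades p53 and is itself a p53 target, had 57, 16 and 27 reads and was lower at 0.5 h than at 0 h (log2 ratio -2.04, adjusted p = 2.27e-06 by Fisher's exact test). It fell in the same window as FAS, while BAX and TRIAP1 were higher. MDM4, its relative, was lower at 2 h than at 0 h (46.2 and 11.4 RPM, adjusted p = 0.0191 by Fisher's exact test). The intronic share of TP53BP1, a chromatin-bound factor of double-strand break repair, went from 0% to 42.9% from 0 to 2 h (p = 0.00506, adjusted p = 0.0693 by Fisher's exact test).

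Of 15 genes of the BCL2 family outside the group, 11 are in the table, and from 0 to 2 h none was called higher and 2 lower, beside 4.84% and 7.55% of all genes. Their median log2 ratio was -0.93, and a higher intronic share was called in 1 of 5 tested, beside 15.7%, which is near the background. That call, on BAK1, did not hold after adjustment (adjusted p = 0.112 by Fisher's exact test). BAK1, which forms pores as BAX does, had 12, 1 and 2 reads and was lower from 0 to 0.5 h (adjusted p = 0.0146 by Fisher's exact test) and from 0 to 2 h (adjusted p = 0.0454 by Fisher's exact test). BAX and BAK1 were thus called in opposite directions. BCL2L11 (BIM), a BH3-only gene, had 0 reads at 0.5 h and 9 at 2 h (adjusted p = 0.0107 by Fisher's exact test). BCL2L11 also had reads at 0 h, and it was not called from 0 to 0.5 h or from 0 to 2 h. The intronic share of BCL2A1, a protective member, went from 0% to 61.1% from 0 to 0.5 h (p = 0.00117, adjusted p = 0.105 by Fisher's exact test).

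Of 14 genes of death receptor signalling outside the group, 8 are in the table, and 1 was called lower, beside 7.55% of all genes, and none higher, beside 4.84%, from 0 to 2 h. Their median log2 ratio was -0.92, and a higher intronic share was called in 1 of 5 tested, beside 15.7%, so that these counts lie near the background. The gene called was TNFRSF1A, the receptor of tumour necrosis factor, which was lower at 2 h than at 0 h (408.5 and 180.3 RPM, adjusted p = 1.37e-08 by Fisher's exact test). Its intronic share was already 52.0% at 0 h and was 86.1% at 2 h (adjusted p = 1.17e-05 by Fisher's exact test). TNFRSF1A and TNFRSF10B were thus called for a higher intronic share in the same window, while the log2 ratio of the total was -1.18 for TNFRSF1A and 0.94, not called, for TNFRSF10B. Of 17 genes of the apoptosome and of caspases, 13 are in the table, with 2 higher and none lower from 0 to 2 h, beside 4.84% and 7.55% of all genes. Their median log2 ratio was 0.60, and a higher intronic share was called in 2 of 5 tested, beside 15.7%. Of these 2, BIRC5 alone held after adjustment. ENDOG, a mitochondrial nuclease, had 21 reads at 0 h and 57 at 2 h (adjusted p = 0.000823 by Fisher's exact test). BIRC6, an inhibitor of apoptosis, had 9, 0 and 10 reads and was lower at 0.5 h than at 0 h (adjusted p = 0.0142 by Fisher's exact test) and higher at 2 h than at 0.5 h (adjusted p = 0.00587 by Fisher's exact test). The intronic share of BIRC5 (survivin), of the same family, went from 0% to 26.9% from 0.5 to 2 h (adjusted p = 0.00246 by Fisher's exact test).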

How the data were processed

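The authors aligned 3ʹREADS reads of nuclear RNA to hg19 with Bowtie2 (CASAVA is also named in the submitters' processing notes, versions not given in the sources used here) and kept reads with non-genomic As at the 3ʹ end. The deposited values are RPM per pA, scaled by the authors to the library total, with the gene of each pA and its type (3ʹ-most exon, intron, upstream exon). How reads were clustered into pAs is not given in the sources used here. Since 100% of the deposited RPM values were whole multiples of 1 read, within 4e-11 reads, reads were recovered and tested by two-sided Fisher's exact test, with Benjamini-Hochberg adjustment over all genes or pAs tested. For APA, as in the study's methods, p was not adjusted and the adjusted value is given beside it. Ratios carry exact conditional intervals, shares Clopper-Pearson intervals and levels Poisson intervals, at 95%. A fold against 0 reads used a floor of 3 reads per library.

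The members and the gene lists, from general knowledge, were chosen with earlier results of these data known. Some genes are not reported here and were left out of the lists. All 8 members are named; of each other list, up to 3 genes called for expression or intron-APA with the smallest p; and the 2 nearest profiles of each member with at least 20 reads in every library. Alternatives covered scaling, the value added to RPM, low reads, pAs under more than 1 gene, thinning, thresholds and the pAs counted. Tests were also run on simulated independent reads, with changes set in genes of at least 20 reads in both libraries. Because of this minimum of 20 reads the run does not cover members with few reads. The simulated reads also held no copies of 1 molecule and no spread between cultures. The tools were scipy 1.17.1, numpy 2.4.6, pandas 2.3.3 and matplotlib 3.10.9 under Python 3.11.15. RefSeq promoter sequences are of GRCh38.p14, and pA positions of hg19.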

Additional observations from a re-analysis of the deposited data

How the results depend on the processing

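Over 58 results and their alternatives, 404 of 420 values kept their direction and side of the threshold, 7 lost their call in the same direction, 2 gained one and 7 turned direction, of which TNFRSF10B from 0.5 to 2 h and TP53I3 from 0 to 2 h had been called and were no longer. Most of these results were not called to begin with, and some alternatives could hardly change them. No pA of the members is listed under more than 1 gene, so leaving out such pAs kept their reads. Adjusted p-values and a higher threshold could only remove an APA call. The total is therefore no measure of stability. Counting 3ʹ-most-exon pAs alone gave 1 gene called higher in place of 2 in the 0–0.5 h window (BAX) and in the 0.5–2 h window (PMAIP1), and 1 lower in place of none in the 0–2 h window (FAS). It turned TNFRSF10B to a log2 ratio of -0.44 in the 0.5–2 h window and -0.93 in the 0–2 h window, and TP53I3 to -0.48 and -0.016, because the alternative leaves out their intronic reads. With 3 RPM added, 1 gene was called higher in the 0–0.5 h window (TRIAP1), as the log2 ratio of BAX was 0.9998, under the threshold. With thinned libraries 1 was called in the 0.5–2 h window (PMAIP1), as the adjusted p of TNFRSF10B was 0.0792 by Fisher's exact test. With upper-quartile scaling, TRIAP1 in the 0.5–2 h window was at -0.041, without a call in either fit. When each pA was counted once, an alternative chosen after seeing the data that leaves few units per gene (too few from 0 to 2 h for FAS or TNFRSF10B to pass), 0 genes were called for intron-APA in the 0.5–2 h and 0 in the 0–2 h window, and the intronic share of TP53I3 in the 0–0.5 h window changed by -8.33 points. With adjusted p-values 0 genes were called for 3ʹUTR-APA in the 0–2 h window. The proximal pA of PMAIP1 against all other pAs gave a change of 11.9 points in the 0.5–2 h window, not called either way. The genes with fewest reads limit the results: 1 to 3 reads in a library leave ratios open over more than an order of magnitude, no time point has a second library, and reads copied from 1 molecule cannot be told from separate molecules. No paired analysis was possible because each time point has 1 library.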
